A study of Mus musculus with 22 samples.

Results

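The cytosolic ribosomal proteins are the protein part of the ribosome that translates nuclear-encoded mRNA, and their transcripts were followed here in brown adipose tissue (BAT) of CPEB2-WT and CPEB2-KO mice. Members were the protein-coding genes whose mouse symbol starts with Rpl or Rps and a number, together with Rplp0, Rplp1, Rplp2 and Rpsa, without the Rps6k kinases and without symbols holding -ps. The rule took 86 of the 55487 genes in each count table, and 85 of them passed the filter on low counts in each cohort. The exception was Rpl10l, a copy of Rpl10 known from testis, which was left untested in both cohorts. The rule also took Rps19bp1, which is a binding partner of ribosomal protein S19 and not a ribosomal protein, and Rps27rt, a retrogene copy of Rps27. In all 22 libraries, each from the BAT of 1 mouse, the gene counts came from mRNA sequencing.

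All mice were on a C57BL/6 background and male by their labels, and WT and KO mice came from heterozygous crosses, so that Cpeb2 was lost in every tissue and not in brown adipocytes alone. Mice of the untreated cohort (5 per genotype) were 21 to 25 weeks old and, by the paper, were food-deprived for some hours before BAT was collected. In the AAV cohort each genotype received either AAV-GFP or AAV-PRDM16 (3 mice per group, named for example KO + AAV-GFP), injected into BAT at 16 weeks with 2e+10 vector genomes in 30 µl and collected 9 weeks later, at 25 weeks. AAV-PRDM16 carries flag-tagged PRDM16, a regulator of brown fat identity, and AAV-GFP is its control vector. The comparisons asked whether ribosomal protein transcripts differed with loss of CPEB2, an RNA-binding protein that controls translation, and whether PRDM16 delivery altered them. Libraries held 55320927 to 162721202 counts. Cpeb2, the targeted gene, was at 10.5 to 13.96 CPM (CPM, read counts scaled to library size with TMM factors) in the 6 WT and at 4.33 to 5.55 CPM in the 6 KO libraries of the AAV cohort. In the untreated cohort it was at 7.69 to 14.3 CPM in WT and at 2.10 to 11.7 CPM in KO, and the library labelled KO replicate 1 lay within the WT range. In addition, 6 of the 10 untreated libraries (WT replicates 3 and 5, KO replicates 1, 3, 4 and 5) held Xist RNA at 104 CPM or more and Y-linked transcripts at 1.17 CPM or less, against their label as male. Brown adipocyte markers were high in every library, with a summed level of 4083.74 to 13497.2 CPM.

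Each ribosome holds a small subunit, which decodes mRNA, and a large subunit, which joins amino acids, and with few exceptions 1 copy of each ribosomal protein. The transcripts of these proteins are known to begin with a tract of pyrimidines, the 5′ terminal oligopyrimidine (TOP) motif, through which the kinase mTORC1 and the RNA-binding protein LARP1 set their translation together. Ribosomal protein genes have many processed pseudogenes, which share sequence and so can share reads with them.

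The bases around the annotated transcription starts are shown for 10 members as a description, and their link to transcript levels was not tested. RefSeq promoters on GRCm38.p6 were matched by symbol for 66 of the 86 members, and the first promoter listed for each gene was used. Each window runs 5′ to 3′ over 30 bases, with 15 bases before the annotated start and 15 from it onwards, and capitals mark the longest unbroken run of C and T. Rps6, Rps10, Rpl15, Rpl28, Rpl35 and Rps27 show a run that spans the annotated start. Rps27 and its retrogene Rps27rt share a stretch downstream of the start. In Rps27rt the capitals mark a run of 6 bases before the start, the earlier one of a tie. Another run of the same length begins at the start. Rps19, Rpsa and the muscle paralog Rpl3l are shown because the results below turn on them.
Rps6: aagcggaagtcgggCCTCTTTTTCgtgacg
Rps10: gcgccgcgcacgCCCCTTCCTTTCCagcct
Rpl15: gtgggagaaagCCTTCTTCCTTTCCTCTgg
Rpl28: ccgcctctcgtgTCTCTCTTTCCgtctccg
Rpl35: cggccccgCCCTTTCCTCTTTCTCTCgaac
Rps27: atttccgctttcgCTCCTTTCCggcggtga
Rps27rt: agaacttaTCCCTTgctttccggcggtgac
Rps19: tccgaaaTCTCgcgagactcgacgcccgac
Rpsa: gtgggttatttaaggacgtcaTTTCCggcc
Rpl3l: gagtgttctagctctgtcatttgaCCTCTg
These windows lie on the plus strand at chr7:4792950-4792979 (Rpl28), chr7:24884577-24884606 (Rps19), chr9:120127751-120127780 (Rpsa) and chr17:24727811-24727840 (Rpl3l). They lie on the minus strand at chr4:86857353-86857382 (Rps6), chr17:27635230-27635259 (Rps10), chr14:18270972-18271001 (Rpl15), chr2:39005117-39005146 (Rpl35), chr3:90213634-90213663 (Rps27) and chr9:114982725-114982754 (Rps27rt). A run of at least 8 C or T bases was present in the windows of 25 of the 66 members (37.9%), against 11.9% of all 27025 promoters. The letters CTTTC were found on the transcribed sense in 17 members (25.8%; 3.97% of all promoters) and on the opposite strand in 3 (4.55%; 3.43%). CTTCC was found on the sense strand in 12 members (18.2%; 6.8%) and on the opposite strand in 10 (15.2%; 7.3%). A run of C and T can hold both sets of letters, so these counts overlap. A match is a description of the letters in the window, and annotated starts can lie some bases from the start used in BAT.

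The members together took a small share of each library. In the untreated cohort they held 0.325%, 0.403%, 1.10%, 0.867% and 0.869% of counts in WT replicates 1, 2, 3, 4 and 5, and 0.744%, 1.34%, 1.17%, 1.07% and 1.34% in KO replicates 1, 2, 3, 4 and 5. WT replicates 1 and 2 therefore stood below all 8 other untreated libraries. In the AAV cohort the share was 0.350% to 0.577%, a range that held WT replicate 2 and lay below all 8 other untreated libraries. The share of counts on mitochondrially encoded genes was 24.6% to 38.9% in the untreated and 29.6% to 36.9% in the AAV cohort. The 2 count tables were made separately and their cohorts differed in virus, injection and collection. The paper gives food deprivation before collection for the untreated mice and names no such step for the AAV mice. Sex markers differed as well, with Xist at up to 305 CPM in untreated and at most 0.268 CPM in AAV libraries. A difference between cohorts cannot be told apart from these. Small-subunit symbols took 40.8% to 43.1% of the member counts in the untreated and 42.5% to 44.4% in the AAV cohort. The balance of the 2 subunits thus varied by a few percent. Their joint share of counts varied more, from 0.325% to 1.34% in the untreated and from 0.350% to 0.577% in the AAV cohort.

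**Figure D1:**
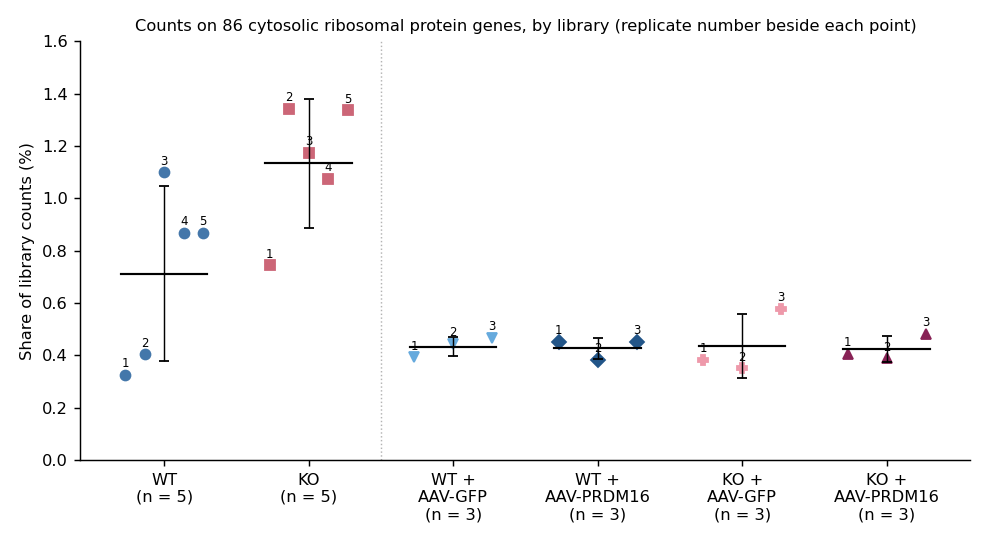
Share of each library's counts (%, y axis) that fell on the 86 ribosomal protein genes, for 22 libraries in 6 groups (x axis). Points are mice, with their replicate numbers, horizontal lines are group means and vertical bars are SD. WT replicates 1 and 2 sit at 0.325% and 0.403%, beside the AAV libraries and below the other 8 untreated libraries, which start at 0.744%.

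Per kilobase of transcript, the scale on which genes can be compared, the order of the members was much alike in both cohorts (Spearman's rho 0.832 over 85 genes, which share libraries and annotation). The 6 highest in the untreated cohort were Rplp2 (mean 480 CPM per kb), Rplp1 (424), Rpl19 (366), Rps15 (329), Rps2 (319) and Rpsa (305), against a median of 107 CPM per kb over members. Rplp1 and Rplp2 encode the acidic P-stalk proteins, which recruit elongation factors and are present in more than 1 copy per ribosome. Rpsa encodes the laminin receptor protein of the small subunit. In the AAV cohort the 6 highest were Rplp2 (185 CPM per kb), Rps2 (168), Rps15 (167), Rpl19 (163), Rpsa (153) and Rplp0 (147), against a median of 43.8. Rplp0, the scaffold of the P stalk and a common reference gene in RT-qPCR, ran from 150 to 758 CPM over the untreated libraries and from 171 to 232 CPM over the AAV libraries. The lowest members in both cohorts were Rpl10l, Rpl3l and Rpl39l, 3 paralogs known for tissue-restricted use. Rpl3l was at 4.53 CPM per kb in the untreated and at 0.111 in the AAV cohort, and Rpl39l at 0.863 and 0.245. Rpl22l1, at 5.17 and 1.71 CPM per kb, was the next lowest. The low per-kb levels of Rps15a (12.4 and 5.43) rest on an annotated transcript of 5130 bases, the longest among the members, whose median was 803.5 bases.

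Across untreated libraries most members followed one another. The correlation of a member's log2 CPM with the mean of all other members over the 10 libraries had a median of 0.955, and 77 of 85 members were above 0.7. Rpl3l (0.113), Rpl4 (0.272), Rpl7 (0.381) and Rpl5 (0.423) were the lowest. Over the 12 AAV libraries the median was 0.702, with 43 of 85 above 0.7, and Rpl3l (-0.666), Rpl7a (-0.532), Rpl12 (0.0314), Rps12 (0.124) and Rpl37a (0.127) were the lowest. Rpl3l held only 0 to 34 counts in AAV libraries, so its value there is uncertain. All of these correlations are descriptions, since members of 1 library share its scaling and composition.

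The difference between WT replicates 1 and 2 and WT replicates 3, 4 and 5 is described first because it touches every untreated comparison. Replicates 1 and 2 were set apart by their low member share, so lower members in them are a description and not a separate finding. All 85 tested members were lower in the former pair, by a median of 1.45 on the log2 scale (of CPM + 0.5), and 84 lay below the other 3 WT libraries without overlap. The exception was Rpl3l. Over all 17869 genes tested 27.6% lay lower and 27.7% higher without overlap, and the median difference of all genes was -0.03. The short members differed most. Rps28 was at 1.48 and 1.37 CPM in replicates 1 and 2, against 43.9, 29.0 and 51.9 CPM in the others, and Rps27 at 1.21 and 1.34 CPM, against 44.9, 21.9 and 46.7. Rps27 is the shortest member transcript (345 bases), and that of Rps28 has 387 bases. Rps13 (log2 difference -3.81), Rpl37a (-3.59) and Rps29 (-3.41) came next. The difference was least for Rps19bp1 (-0.43), Rpl7l1 (-0.45), Rpl6 (-0.53), Rpl3l (-0.56), Rpl39l (-0.65) and Rpl4 (-0.73). For Rpl3l (mean 0.623 against 3.41 CPM) and Rpl39l (0.261 against 0.720 CPM) the added 0.5 draws the difference toward 0. Their place among the least changed members is therefore uncertain.

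The differences were ordered in part by length. The 28 shortest members (345 to 667 bases) had a median difference of -1.80 on the log2 scale, the 28 of intermediate length -1.27 and the 29 longest (939 to 5130 bases) -1.27. Spearman's rho between length and difference was 0.416 over 85 members, and among the long members Rpl27a (-2.54) and Rps20 (-2.42) had the most negative values. The annotated length of Rps20 (3706 bases) is that of a long annotated principal transcript. Other protein-coding genes of the same 3 length classes had medians of -0.99 (243 genes), -0.79 (491 genes) and -0.05 (11058 genes). Short genes in general were thus lower in replicates 1 and 2, and members had a lower median than other genes in each length class. Since the pair was set apart by its low member share, that gap is a description and no independent contrast. The longest class is wide (939 to 5130 bases) and lengths within it were not matched. Its gap can therefore not be ranked against those of the shorter classes. Sex markers split the WT libraries along similar lines. Replicates 1 and 2 held Y-linked transcripts at 192.8 and 190.8 CPM and Xist at 0.0876 CPM or less, and all 12 AAV libraries were alike in this (Y-linked transcripts at 153.8 to 193.9 CPM and Xist at 0.268 CPM or less). Replicates 3 and 5 held Xist at 197 and 305 CPM with Y-linked transcripts at 0.249 CPM or less, and replicate 4 held both, with 116 CPM of Y-linked transcripts and 14.02 CPM of Xist. Among KO libraries, replicate 2 also held Y-linked transcripts, at 77.1 CPM, with Xist at 1.65 CPM. Its member share of 1.34% was the highest of all libraries. The part of these markers in the differences was not tested.

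**Figure D2:**
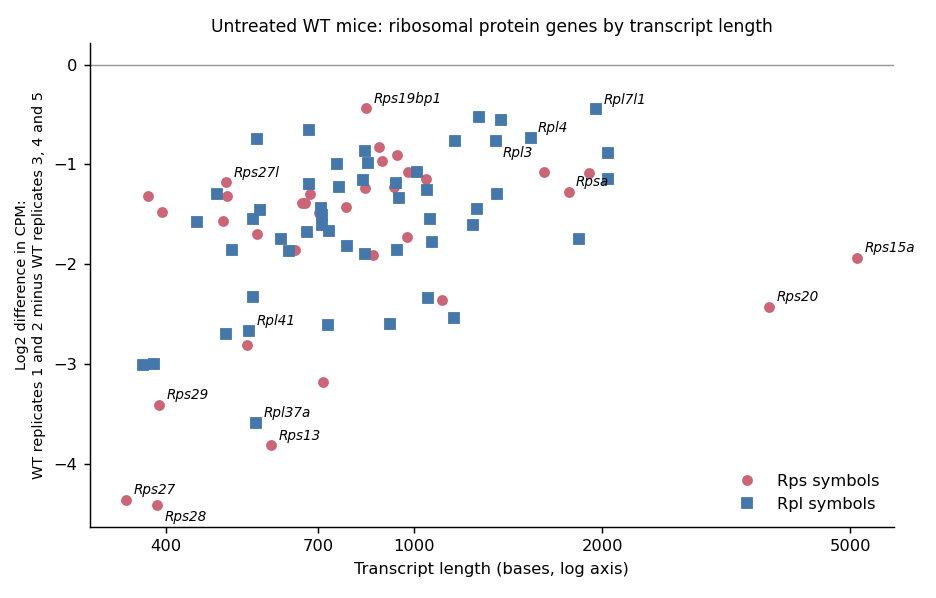
Log2 difference in CPM between WT replicates 1 and 2 and WT replicates 3, 4 and 5 (y axis) against transcript length in bases (x axis, log scale) for the 85 tested members, with Rps symbols as circles and Rpl symbols as squares. Every member lies below 0, with Rps28 (-4.41) and Rps27 (-4.36) lowest, both short transcripts. Replicates 1 and 2 were set apart by their low member share.

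In untreated BAT no ribosomal protein gene differed between KO and WT at an adjusted p of 0.05. With edgeR's quasi-likelihood test, 80 of the 85 members had a positive log2 fold change and 5 a negative one, with a median of 0.50 (range -0.26 to 2.16), beside a median of 0.04 over all 17869 genes tested. None was called (0% of all genes tested), and DESeq2 and limma-voom called none either. At an unadjusted p under 0.05 there were 2 members higher, Rpsa and Rpl29, and none lower, against 4.99% of all genes higher and 10.9% lower. No member separated the groups (0.492% of all genes were higher and 0.907% lower without overlap).

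Rpsa was at 187, 218, 580, 474 and 427 CPM in WT replicates 1, 2, 3, 4 and 5, and at 404, 595, 747, 746 and 1018 CPM in KO replicates 1, 2, 3, 4 and 5. The groups overlapped, and WT replicates 1 and 2 were lowest. Its log2 fold change was 0.90 (SE 0.36, adjusted p = 0.305). Rplp1 had a log2 fold change of 0.91 (SE 0.55, adjusted p = 0.387) and Rpl7a, a large-subunit protein, of 1.23 (SE 0.61, adjusted p = 0.329). Rpl7a was at 7.06 and 18.9 CPM in WT replicates 1 and 2, at 49.1 to 105 CPM in the other WT mice, and at 54.1 to 185 CPM in KO mice. The most negative values were those of Rpl7 (-0.26), Rpl5 (-0.13), Rps27a (-0.09) and Rpl4 (-0.07), with adjusted p of 0.624 or more. Rpl5 and Rpl11 bind the 5S ribosomal RNA and are known to hold MDM2 when ribosome assembly fails. Both were lower in WT replicates 1 and 2 than in the other WT mice, without overlap. Means were 92.2 against 206 CPM for Rpl5 and 102 against 189 CPM for Rpl11. Rpl11 was at 99.9 and 105 CPM in WT replicates 1 and 2 and at 141 to 258 CPM in all others. The 2 genes parted in KO replicate 5, which held the highest Rpl11 (258 CPM) and the lowest Rpl5 (64.9 CPM) of the cohort. Without that mouse the log2 fold change of Rpl5 was 0.0513.

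The positive median rested largely on WT replicates 1 and 2. Without them it was 0.11 and 55 of 85 members were positive, beside 0.07 over all genes. These mice held the lowest member shares of the cohort, so leaving them out lowers the median by the choice itself. Left out singly, any 1 mouse gave a median between 0.30 and 0.75, so that no single mouse turned its direction. With Y-linked transcripts as a present-or-absent covariate the median was 0.29. That covariate classed WT replicate 4 and KO replicate 2, which also held Xist, with WT replicates 1 and 2. Among only the 6 libraries with Xist (2 WT and 4 KO), an alternative chosen after seeing the data, it was -0.01, with 39 of 85 members positive. Some other gene groups had medians of the same sign, whereas the lists of ribosome biogenesis, other TOP genes and control of TOP mRNAs, given below, had negative ones. The 991 other protein-coding genes no longer than the upper quartile of the members had a median of 0.48, and the 78 mitochondrial ribosomal proteins one of 0.26. Summed skeletal muscle markers were 15.7 to 3358.65 CPM in WT and 8.66 to 6747.96 CPM in KO, and all 10 had a positive log2 fold change. So did all 5 macrophage markers (median 0.72; summed level 33.1 to 286 CPM in WT and 44.1 to 363 CPM in KO), the 4 tested white adipocyte markers (median 1.19; 16.5 to 207 and 34.1 to 268 CPM) and the 4 tested T cell markers (median 0.86; 0.464 to 1.85 and 1.19 to 2.70 CPM), with none called. Summed B cell markers were at 3.50 to 45.4 CPM in WT and 3.79 to 31.6 CPM in KO. Those of brown adipocytes were at 5160.53 to 9152.43 and 4636.97 to 13497.2 CPM. The mitochondrially encoded share was 32.0% to 38.9% in WT and 24.6% to 34.5% in KO. The part of these values in the result was not tested.

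**Figure D3:**
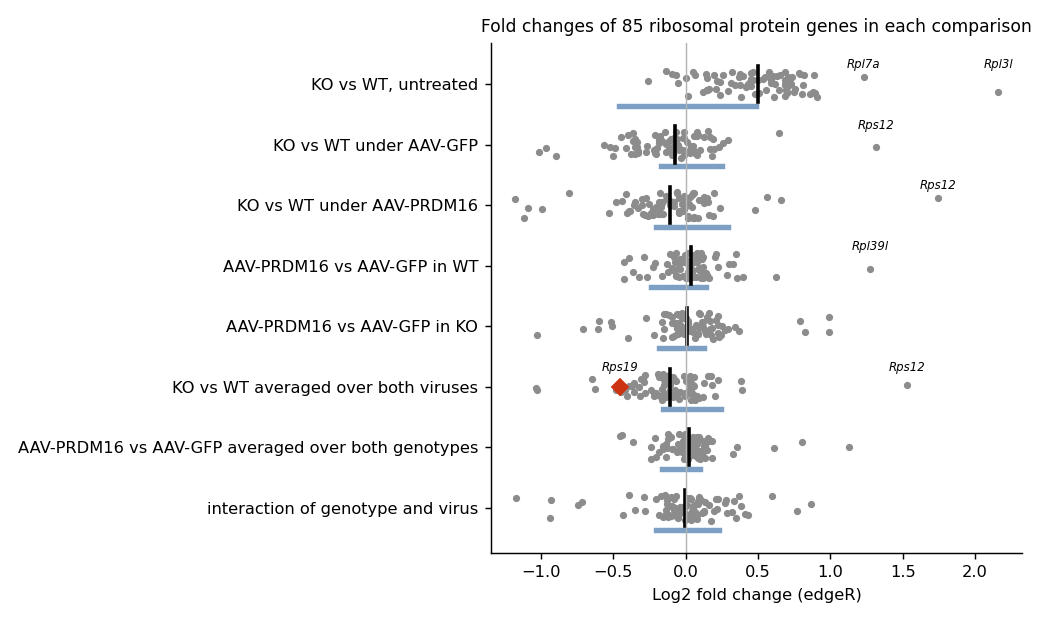
Log2 fold changes (x axis, edgeR) of the 85 tested members in each of 8 comparisons (rows). Grey points are members, the red diamond is the one called at an adjusted p of 0.05 (Rps19), vertical bars are the members' medians and blue lines span the middle quartiles of all genes tested. The members lie mostly above 0 in the untreated comparison (median 0.50), where none was called, and have medians of -0.11 to 0.04 in the others.

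In the AAV cohort the median of the genotype comparison had the opposite sign. Over both viruses, KO against WT gave a median log2 fold change of -0.11 over members (0.01 over all 18899 genes), with 27 positive and 58 negative. With each mouse left out the median ran from -0.18 (without KO + AAV-GFP replicate 3) to -0.05 (without KO + AAV-GFP replicate 2), and with the other settings from -0.21 (limma-voom) to -0.05 (library totals). A single member was called by edgeR's quasi-likelihood test, Rps19, which was lower in KO, whereas 2.18% of all genes tested were called. DESeq2 called 8 members (1 higher and 7 lower; 8.38% of all genes) and limma-voom with quality weights 12 (1 higher and 11 lower; 6.71%). Without KO + AAV-GFP replicate 3 edgeR called 6 members (1.47% of all genes), and without replicate 1 of that group 2 (3.02%). At an unadjusted p under 0.05, 1 member was higher and 13 were lower, against 9.54% of all genes higher and 8.76% lower. Without overlap between the 6 WT and the 6 KO libraries, 2 members were lower and none higher (1.58% and 1.13% of all genes). The comparisons under each virus share these libraries. Under AAV-GFP the median was -0.08, none was called (0.0529% of all genes), and 1 member was higher and 10 were lower at an unadjusted p under 0.05 (4.98% and 4.2%). Under AAV-PRDM16 it was -0.11, none was called (0.0476%), and 1 was higher and 9 were lower (6.92% and 6.8%). The AAV-GFP median was 0.01 without KO + AAV-GFP replicate 2. DESeq2 called Rps19 under each virus, and limma-voom called it under AAV-PRDM16 and no member under AAV-GFP.

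Rps19, at chr7:24884371-24889806 on the plus strand (ENSMUSG00000040952), encodes a small-subunit protein needed to mature the small ribosomal RNA and mutated in Diamond-Blackfan anaemia. It was at 47.2, 49.7 and 44.1 CPM in WT + AAV-GFP and at 49.8, 45.5 and 51.3 CPM in WT + AAV-PRDM16. In KO + AAV-GFP it was at 31.7, 31.7 and 36.8 CPM, and in KO + AAV-PRDM16 at 36.3, 38.4 and 35.2 CPM. All 6 KO libraries lay below all 6 WT libraries. The log2 fold change averaged over both viruses was -0.45 (SE 0.07, adjusted p = 0.0095, edgeR). It remained called without any 1 library (adjusted p 0.0110 to 0.0365), but not with library totals in place of scaling factors (adjusted p = 0.130). In the untreated cohort Rps19 was at 34.1 to 120 CPM in WT and at 59.95 to 176 CPM in KO. Rps19bp1, whose product binds the S19 protein, was at 5.86 to 7.27 CPM in the 6 WT and at 4.52 to 5.75 CPM in the 6 KO libraries of the AAV cohort, again without overlap (log2 fold change -0.36, SE 0.10, adjusted p = 0.0832, edgeR).

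Rps29 was at 17.2, 20.1 and 19.5 CPM in WT + AAV-GFP, 17.4, 17.4 and 22.4 in WT + AAV-PRDM16, 11.4, 11.3 and 15.6 in KO + AAV-GFP and 15.1, 14.3 and 17.7 in KO + AAV-PRDM16. A single KO library reached into the WT range (log2 fold change -0.42, SE 0.11, adjusted p = 0.0646, edgeR). Rpl37a, a small zinc-binding protein of the large subunit, was at 6.22 to 15.3 CPM in WT and 4.46 to 8.95 CPM in KO libraries, with a log2 fold change of -0.63 (SE 0.22, adjusted p = 0.143). Rpl39l (-1.04, adjusted p = 0.427), Rps28 (-1.03, adjusted p = 0.28) and Rps13 (-0.65, adjusted p = 0.493) had the other most negative values, each with wide spread among replicates. Rps28, for example, ran from 2.06 to 11.3 CPM within WT + AAV-GFP. The same direction was seen in other short or translation-related genes. The 78 mitochondrial ribosomal proteins had a median of -0.19, with 12 called lower and none higher. Of the 1029 other protein-coding genes no longer than the members' upper quartile, 83 were called lower and 2 higher, with a median of -0.14. All 5 macrophage markers had positive values and 2 were called higher in KO, with summed levels of 32.7 to 98.9 CPM in WT and 54.2 to 282 CPM in KO libraries. Brown adipocyte markers had a median of -0.30, with 2 of 10 called lower. Fewer cells of a type and less RNA per cell cannot be told apart in bulk tissue, and the part of these markers in the result was not tested.

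Under AAV-GFP alone the most negative values were those of Rpl37a (-1.02, adjusted p = 0.349), Rps28 (-0.97), Rpl39l (-0.90) and Rps29 (-0.56), and the 3 most positive those of Rps12 (1.32), Rpl3l (0.64) and Rpl12 (0.29). Under AAV-PRDM16 the most negative were Rpl39l (-1.18), Rps13 (-1.12), Rps28 (-1.09) and Rpl22l1 (-0.99, adjusted p = 0.241), and the most positive Rps12 (1.75), Rps27 (0.66), Rpl7a (0.56) and Rpl12 (0.48). None of these passed the test, and several rested on 1 library. Rpl39l (0 to 58 counts) and Rpl3l (0 to 34 counts) were near the floor in AAV libraries, so their values in every AAV comparison are uncertain. Under AAV-GFP, Rps12 was at 0.25 and Rpl12 at 0.062 without KO + AAV-GFP replicate 3, and Rpl3l at 0.23 without replicate 2 of that group. With each mouse left out under AAV-PRDM16, Rpl7a ran from 0.18 to 1.06 and Rpl12 from 0.17 to 0.68. Averaged over both viruses, Rps12, Rpl12 (0.39), Rpl7a (0.38) and Rps27 (0.22) had the most positive values. The value of Rps27 rested on KO + AAV-PRDM16 replicate 3 (8.89 CPM, against 0.909 to 4.31 CPM in all other AAV libraries), without which it was -0.30.

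Rps12, a small-subunit protein, had the most positive value. It was at 3.44, 4.71 and 5.02 CPM in WT + AAV-GFP and 5.26, 6.80 and 5.31 in WT + AAV-PRDM16, against 3.56, 6.86 and 22.2 in KO + AAV-GFP and 16.4, 10.5 and 31.5 in KO + AAV-PRDM16. Its log2 fold change was 1.53 (SE 0.39, adjusted p = 0.0626, edgeR), and DESeq2 (adjusted p = 0.0141) and limma-voom (adjusted p = 0.047) called it. Rps12 has near-identical copies with counts of their own. Rps12-ps3, at chr19:59322290-59322783 and annotated as protein-coding despite its name, was at 22.5 to 33.0 CPM in the 6 WT libraries and at 15.9 to 31.0 CPM in the 6 KO libraries, which is above Rps12 itself in every library but KO + AAV-PRDM16 replicates 1 and 3. When counts of all -ps genes were added to their parent, an alternative chosen after seeing the data, the log2 fold change of Rps12 was 0.16 (adjusted p = 0.613). How the authors' counting treated reads with several matches was not given in the sources used here, so the level of Rps12 is uncertain.

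**Figure D4:**
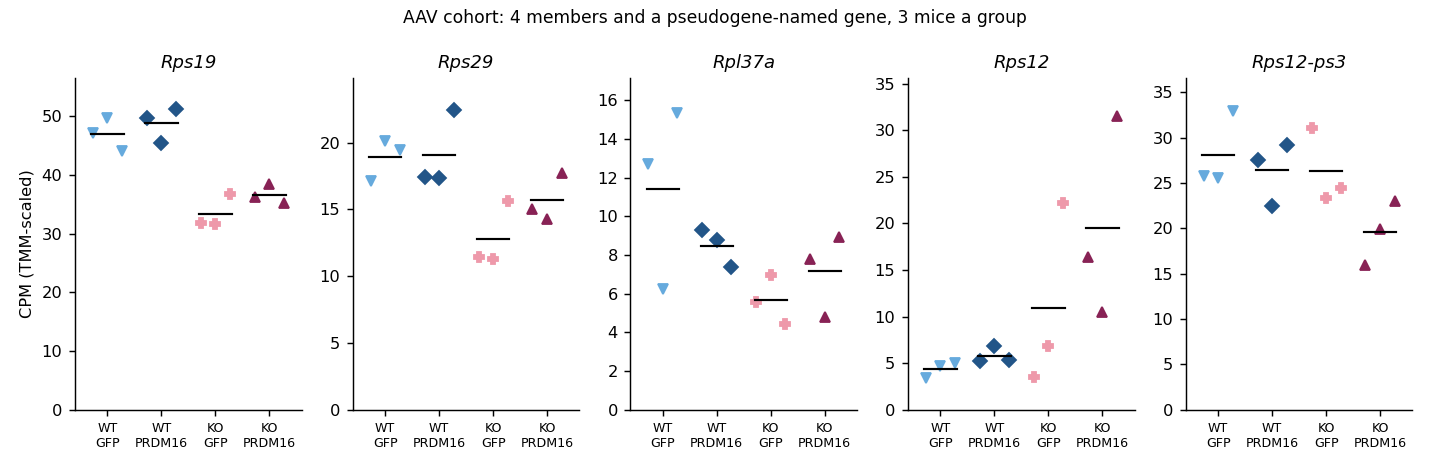
CPM (y axes, TMM-scaled, from 0) of Rps19, Rps29, Rpl37a, Rps12 and the pseudogene-named Rps12-ps3 in the 4 AAV groups (x axes), with 1 point per mouse (n = 3) and a line at the group mean. The 6 KO libraries lie below the 6 WT libraries for Rps19, while Rps12 is spread from 3.56 to 31.5 CPM among KO libraries.

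The same division touched other members. Genes named as pseudogenes (298 in all) belonged to 60 of the 86 members and took 6.253% of the joint counts in untreated libraries and 9.111% in AAV libraries. They took more than their parent for Rpl17 and Rpl21 in the untreated cohort (65.4% and 62.7% of the joint counts). In the AAV cohort this held for 6 members, namely Rpl17 (82.6%), Rpl7a (81.8%), Rpl21 (77.2%), Rps12 (75.8%), Rps13 (57.8%) and Rps27a (56.8%). For Rpl7a the gene was Rpl7a-ps11, at 38.5 to 100.1 CPM in untreated and 45.4 to 61.0 CPM in AAV libraries, whereas Rpl7a itself was at 7.06 to 185 and 7.54 to 27.9 CPM. Levels and fold changes of these 6 members are therefore uncertain.

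No member was called as changed by PRDM16 delivery. The median log2 fold change of AAV-PRDM16 against AAV-GFP was 0.04 in WT and 0.01 in KO, and 0.02 averaged over both genotypes, each from libraries shared with the genotype comparisons. None of the 85 members was called by edgeR's quasi-likelihood test in WT (0% of all genes), in KO (0%) or averaged (0.037%), nor by DESeq2 or limma-voom. At an unadjusted p under 0.05, 1 member was higher and none lower in WT (2.1% and 5.19% of all genes), 1 was higher and 2 were lower in KO (1.31% and 5.1%), and 1 was higher and none lower in the average (2.07% and 7.02%). In WT the most positive values were Rpl39l (1.27), Rpl7a (0.62), Rps12 (0.40) and Rpl7l1 (0.35), and the most negative Rpl37a (-0.43), Rpl27a (-0.43), Rps28 (-0.39) and Rps27a (-0.36). Of these, Rpl7l1 alone had an unadjusted p under 0.05 (adjusted p = 0.658). Rpl39l and Rpl3l were near the floor in all PRDM16 comparisons, as given above. In KO, Rpl22l1 had the most negative value (-1.03, SE 0.34, adjusted p = 0.478), followed by Rpl3l (-0.71), Rps13 (-0.61) and Rps27rt (-0.60), and Rpl7a (0.99), Rpl39l (0.99), Rps12 (0.83) and Rps27 (0.79) the most positive. Rpl22l1, the paralog of Rpl22, was at 0.939, 0.852 and 1.58 CPM in KO + AAV-GFP and at 0.446, 0.740 and 0.468 CPM in KO + AAV-PRDM16. Averaged over both genotypes, the most negative values were those of Rps28 (-0.45), Rpl22l1 (-0.44), Rpl34 (-0.37) and Rpl3l (-0.24), and the most positive those of Rpl39l (1.13), Rpl7a (0.81, SE 0.29, adjusted p = 0.342), Rps12 (0.61) and Rps27 (0.35).

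Immune markers gave larger values in the virus comparison than the members did. All 5 T cell and all 5 macrophage markers had a negative averaged log2 fold change, with medians of -3.24 and -0.88, and an unadjusted p under 0.05, though none was called. Their part in the values of the members was not tested.

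The interaction of genotype and virus asks whether PRDM16 delivery acted differently in KO and WT. Its median over members was -0.01, with 42 positive and 43 negative, and none was called (0% of all genes) by edgeR, DESeq2 or limma-voom. At an unadjusted p under 0.05 no member was higher and 2 were lower, among them Rpl22l1 (1.59% and 1.6% of all genes). The interaction of Rpl22l1 was -1.17 on the log2 scale (SE 0.48, adjusted p = 0.9998, edgeR). Rpl3l (-0.94) and Rps13 (-0.93) came next among the negative values given here, and the most positive values were those of Rps27 (0.87), Rpl37a (0.77), Rpl27a (0.60) and Rps12 (0.43).

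Several ribosomal proteins have a second gene whose product can take their place. Rpl3l replaces Rpl3 in striated muscle. It was at 0.674, 0.571, 9.90, 0.0857 and 0.240 CPM in WT replicates 1, 2, 3, 4 and 5, and at 17.6, 28.3, 0.392, 0.298 and 4.25 CPM in KO replicates 1, 2, 3, 4 and 5. The 4 libraries above 1 CPM were also the 4 with the highest summed level of 10 skeletal muscle genes (3358.65, 5907.06, 6747.96 and 1149.61 CPM for WT replicate 3 and KO replicates 1, 2 and 5), whereas the other 6 untreated libraries held 8.66 to 180 CPM of these. Per kilobase, Rpl3l made up 0.0620% to 18.0% of the pair with Rpl3 in the untreated cohort and at most 0.312% in the AAV cohort, where muscle genes summed to 0.421 to 101 CPM. Its untreated log2 fold change was 2.16 (SE 1.36, adjusted p = 0.397).

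Rps27l and Rps27rt, 2 paralogs of Rps27, varied less than Rps27 itself. Rps27 was at 1.21 and 1.34 CPM in WT replicates 1 and 2, at 18.4 to 57.5 CPM in the 8 untreated libraries other than WT replicates 1 and 2, and at 0.909 to 8.89 CPM in the AAV cohort. Rps27l, induced by p53 in many tissues, was at 18.3 to 59.3 CPM in the untreated and at 16.3 to 26.1 CPM in the AAV cohort. Rps27rt was at 4.97 to 18.0 and at 2.92 to 12.3 CPM. Per kilobase, Rps27l was thus 37.3% to 91.3% of its pair with Rps27 in untreated and 60.8% to 94.5% in AAV libraries, with both WT replicates 1 and 2 at 91.3%. Their transcripts were not compared, and how reads were divided between Rps27 and its retrogene was not tested. Rpl7l1 was 13.1% to 26.1% of its pair with Rpl7 over all libraries of the untreated cohort and 14.1% to 22.7% in the AAV cohort. Rpl36al was 25.9% to 35.8% of its pair with Rpl36a in the untreated and 33.1% to 42.3% in the AAV cohort. Rpl22l1 made up 7.06% to 25.2% of its pair with Rpl22 in the untreated and 4.47% to 13.5% in the AAV cohort, and Rpl39l at most 5.93% and 10.6% of its pair with Rpl39.

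**Figure D5:**
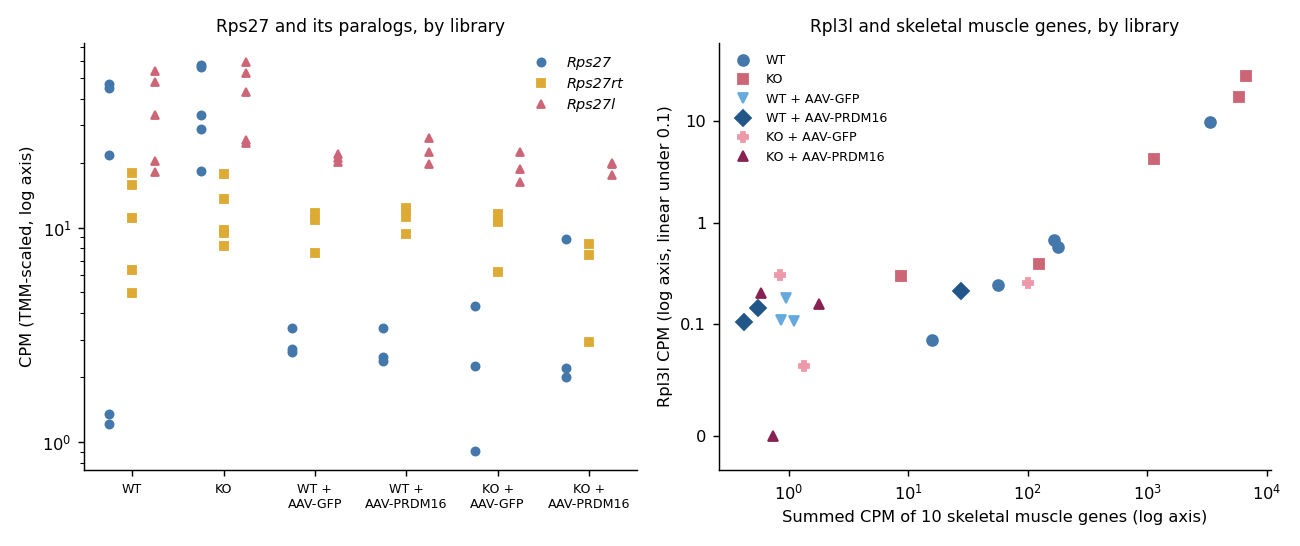
Left, CPM (y axis, log scale) of Rps27, Rps27rt and Rps27l in each library of the 6 groups (x axis); right, Rpl3l CPM (y axis, log scale, linear under 0.1) against the summed CPM of 10 skeletal muscle genes (x axis, log scale), 1 point per library. Rps27 falls below both paralogs in WT replicates 1 and 2 and in all but 1 AAV library, and Rpl3l exceeds 1 CPM only in the 4 libraries with over 1000 CPM of muscle genes.

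X-linked members were Rpl10, Rpl36a, Rpl39 and Rps4x. Rpl10, a late-joining large-subunit protein, was at 34.3 to 107 CPM in the untreated and at 42.3 to 61.3 CPM in the AAV cohort. Rps4x was at 35.2 to 141 and at 40.3 to 70.0 CPM. Rps6, the small-subunit protein phosphorylated downstream of mTORC1, differed by 2.24-fold between the highest and lowest untreated library, at 98.5 to 220 CPM, and ran from 102 to 163 CPM over the AAV libraries. Rpl24, at 49.3 to 160 and 55.2 to 74.8 CPM, is a large-subunit protein that bridges both subunits. Replicate spread was larger in the untreated cohort, with a median coefficient of variation over members of 54.5% in WT and 30.1% in KO, against 13.8% to 19.5% in the 4 AAV groups. In the AAV cohort Rpl8, Rpl11, Rpl24 and Rplp0 varied by 1.34-fold to 1.36-fold from the lowest to the highest library.

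Other genes of the pathway were followed in 3 lists. Of 89 genes of ribosome biogenesis none was called in untreated BAT (3 higher and 3 lower at an unadjusted p under 0.05), with a median of -0.29, opposite in sign to the members. Nucleolin (Ncl; -0.61), Npm1 (-0.39) and Ubtf (-0.14) were among the most abundant of them. In the AAV genotype comparison their median was -0.06 and 1 of 89 was called, Nop10 (-0.37, adjusted p = 0.0207, edgeR), a small protein of the snoRNPs that pseudouridylate ribosomal RNA. Of 22 other TOP genes of translation none was called in either comparison, with medians of -0.06 and -0.07. The most abundant were Eef1a1 (-0.08 and -0.04) and Eef2 (0.62 and -0.11). The untreated median of these TOP genes thus lacked the positive sign of the members' median. Of 20 genes that control TOP mRNAs, including Deptor (-1.38 and 0.34) and Mtor (-0.66 and -0.16), 19 passed the filter in the untreated mice and 20 under AAV, and none was called, with medians of -0.24 and -0.01. In the averaged PRDM16 comparison none of the 3 lists had a called gene, with medians of 0.01 for biogenesis, 0.03 for TOP genes and 0.04 for their control.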

How the data were processed

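mRNA libraries from BAT of 22 mice (SureSelect XT HS2) were sequenced by the authors, who deposited raw read counts per gene in 1 table for each cohort. The submitters' processing notes name bcl2fastq 2.20, Trimmomatic 0.36, HISAT2 and GRCm38.p6. The counting tool, annotation release, strand setting and use of molecular identifiers are not given in the sources used here. Of 55487 gene IDs, 55227 matched a symbol. From the deposited counts, genes were filtered with filterByExpr and scaled by TMM, and each cohort was fitted with edgeR 4.0.16 (R 4.3.3) by the quasi-likelihood test, with all 4 AAV groups in 1 fit. P-values were adjusted by Benjamini-Hochberg over all genes tested, with a threshold of 0.05, and CPM are TMM-scaled. Common dispersion was 0.312 for the untreated mice and 0.0887 for the AAV mice. On simulated counts a 2-log2 change was recovered in 44.2% of genes in the untreated comparison and in 72.9% in the averaged AAV genotype comparison, and a 1-log2 change in 4.17% and 56.6%. The changed genes were drawn at random from all genes tested and simulated independently, whereas untreated members followed one another. Recovery of the members themselves was not tested. DESeq2 1.42.0, limma 3.58.1 (voom), other scalings, no filter, GC and length trends, a replicate block and leaving out each mouse were alternatives. Summing pseudogene counts, setting paralogs aside and the 6 libraries with Xist were chosen after seeing the data. WT replicates 1 and 2 were likewise singled out by their values in these data.

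Members and gene lists were chosen with earlier results of these data known. Named with values were the 4 most positive and 4 most negative members of each comparison, the highest and lowest per kilobase, paralogs with their parents, Rplp0, Rplp1, Rplp2, Rpsa, Rps6, Rpl5, Rpl11, Rpl10, Rpl24, X-linked members and any called member. A few genes that this rule would name are not reported here. Others named for their spread, pseudogenes or lack of overlap were chosen after their values were seen. Each library is 1 mouse. Replicate numbers were not treated as a pairing of mice, which the labels do not state, and no 2 libraries of a group agreed within sampling noise.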

Additional observations from a re-analysis of the deposited data

Results flagged for a closer look

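Rpl3l in untreated WT was flagged because 1 library lay far from the others. WT replicate 3 held 9.90 CPM, and its gap to the nearest of the other 4 WT mice was 0.94 of the group's range, above Dixon's critical value for 5 samples. This was 1 of 58 groups of 5 examined, and chance flags about 1 in 20 groups. WT replicate 3 was also the WT library with the most skeletal muscle RNA (3358.65 CPM summed over 10 genes). The part of muscle RNA in this value was not tested.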

How the results depend on the processing

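Over 16 summary results, 330 of 370 alternative values kept their direction or count, 17 counts moved and 23 medians changed sign. Over named members, 1367 of 1405 did so, with 34 sign changes, 1 call lost and 3 gained. The cause of these changes was not tested. In untreated BAT the median was -0.0138 in the 6 libraries with Xist, and 2 members (Rpl3l and Rpl7a) passed at 2-fold and an adjusted p of at most 0.5 (10.8% of all genes). That looser rule passed 1 member under AAV-GFP (Rpl37a; 1.8% of all genes), 2 under AAV-PRDM16 (Rps12 and Rps13; 4.85%), 1 for PRDM16 in KO (Rpl22l1; 2.15%) and 3 for the averaged genotype (4.92%). DESeq2 called 1 member under each virus (1.26% of all genes under AAV-GFP, 3.31% under AAV-PRDM16) and limma-voom 1 under AAV-PRDM16 (2.88%). For the averaged genotype the count was 0 with library totals (0.217% of all genes; 1 member higher and 5 lower at an unadjusted p under 0.05), 8 with DESeq2 (8.38%), 12 with limma-voom (6.71%), 2 with the GC and length trend removed (1.22%), 2 with pseudogene counts added (2.25%), 6 at an adjusted p of 0.1 (6.22%), and 1 to 6 with each mouse left out.

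The replicate numbers were not treated as a pairing, which the labels do not state (1 of 5 untreated and 2 of 18 AAV same-number pairs had a correlation over 0.1, and 1 of 10 and 3 of 12 libraries correlated best with their own number). So few pairs cannot show whether mice were paired. With the replicate block the averaged genotype count was 2 (Rps19 and Rps29; 1.82% of all genes), the interaction median 0.0144, and the untreated median 0.67, with 0 called and 46 members higher at an unadjusted p under 0.05 (6.83% of all genes), against 2 (4.99%) without it. The block also gave 0.40 for untreated Rps27a and -0.0467 for averaged Rps27.

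With library totals the PRDM16 medians were -0.0105 in WT, -0.0349 in KO and -0.0282 averaged. This scaling moved the untreated median of all genes to 0.21, and Rpl5, Rps27a and Rpl4 were then at 0.0583, 0.20 and 0.14. Averaged Rps19 was at -0.40 (adjusted p = 0.130, edgeR). The interaction median was 0.0109 with upper-quartile factors, 0.114 with limma-voom, 0.0351 with the GC and length trend removed and 0.0158 with paralogs set aside. Removing that trend moved the all-gene median of the averaged PRDM16 comparison to 0.11, and untreated Rpl5 and Rps27a to 0.21 and 0.0232. Pseudogene counts gave 0.0892 for untreated Rps27a, -0.024 for Rps12 with PRDM16 in WT and 0.0199 for Rps13 with PRDM16 in KO. With limma-voom Rps27 was at -0.14 under AAV-PRDM16 and -0.26 averaged.

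With each mouse left out, medians ran from -0.217 to 0.0083 for genotype under AAV-GFP, -0.0446 to 0.115 for PRDM16 in WT, -0.0987 to 0.133 in KO, -0.0211 to 0.0698 averaged, and -0.139 to 0.102 for the interaction. Untreated Rpl5 ran from -0.30 to 0.0513, Rps27a from -0.38 to 0.37 and Rpl4 from -0.23 to 0.11. Rps27 ran from -0.38 to 1.003 under AAV-PRDM16, -0.30 to 0.41 for the averaged genotype, -0.25 to 1.43 for PRDM16 in KO, -0.16 to 0.68 averaged and -0.17 to 1.52 for the interaction. PRDM16 in WT gave -0.68 to 0.26 for Rps27a and -1.23 to 0.24 for Rps28, and in KO -1.04 to 0.0539 for Rps13. Averaged PRDM16 gave -0.87 to 0.0483 for Rps28 and -0.53 to 0.0235 for Rpl3l, and the interaction -0.10 to 1.49 for Rps12. The spread among untreated mice limits that comparison to large changes.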
